A study of Mus musculus with 4 samples.

Results

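Meningeal fibroblast spots were examined in Visium sections of the mouse brain. They were chosen by the summed unique molecular identifiers (UMIs) of Dcn, Igf2, Col1a2, Slc6a13 and Mgp per 10000 UMIs of the spot. In each section, spots with 300 or more UMIs were kept, and those in the top 3% by this score that held 3 or more UMIs of the 5 genes were selected. The rule gave 104 of 10377 kept spots: 39 of 2740 in trained 1, 27 of 2946 in trained 2, 10 of 2113 in untrained 1 and 28 of 2578 in untrained 2.

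Sections were 1 coronal plane through the dorsal hippocampus from each of 4 male ArcCreERT2::eYFPflx mice on a C57BL/6 background, aged 3 to 4 months. Cre, inducible by tamoxifen, is under the promoter of Arc in these mice, so eYFP marks cells that expressed Arc around the injection and says nothing about cells that do not use this promoter. The 2 trained mice learned active place avoidance, and the 2 untrained mice had the same sessions with the shock off. Both conditions received 4-hydroxytamoxifen before the retention test, were housed singly, and gave tissue 3 days after that test. Arc-expressing and other cells were not separated on the sections, and each condition held 2 mice.

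Fibroblasts of the meninges lie in thin sheets over the brain surface, follow larger vessels into the tissue and also form the stroma of the choroid plexus. They secrete collagens and small proteoglycans, supply growth factors, retinoic acid and prostaglandin enzymes, and carry transporters that exchange solutes with the cerebrospinal fluid. Dcn encodes decorin, which binds collagen fibrils; Igf2 an insulin-like growth factor; Col1a2 a chain of type I collagen; Slc6a13 a GABA and taurine transporter; and Mgp matrix Gla protein, which limits calcification. Igf2 is also made by choroid plexus epithelium, and Mgp also by cells of vessel walls.

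Untrained 1 stood apart in depth, with 3560294 UMIs over 2359 spots, beside 7119995, 10330015 and 6581748 UMIs over 2865, 3055 and 2661 spots in trained 1, trained 2 and untrained 2. Its 10 selected spots held 18470 UMIs, beside 123098, 93331 and 108795 in the other sections, and 3 UMIs there already made 162 UMIs per 1000000 (CPM). Trained 1 stood apart in content, because 22 of its 39 selected spots were also among its choroid plexus spots. A Visium spot covers several cells, so the shares given here are shares of spots, and fewer fibroblasts in a spot cannot be told apart from less RNA in each of them. The same 1330 barcodes occurred in every section, since a barcode marks a position on the array and not a cell.

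The 5 genes that chose the spots are described here without a test. Igf2 stood at 861 and 407 CPM in the selected spots of trained 1 and trained 2 and at 920 and 1048 CPM in those of untrained 1 and untrained 2, beside 21.5, 11.2, 22.3 and 29.0 CPM in all other spots of the same sections. Mgp stood at 520, 739, 866 and 938 CPM, and Dcn at 179, 139, 217 and 202 CPM, in the same order of sections. Trained 2 was low in Igf2 and trained 1 in Mgp, and for both genes the 2 untrained sections lay above the 2 trained ones. Col1a2 read 106, 107, 271 and 175 CPM and Slc6a13 81.2, 85.7, 54.1 and 110 CPM. The conditions did not overlap for Col1a2 and did for Slc6a13, the transporter, but untrained 1 held only 5 UMIs of Col1a2 and 1 of Slc6a13. The rule itself shapes the levels of its 5 genes, so their orders between conditions are not a result.

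Igf2 and Mgp led the selection. Igf2 was found in 83 of the 104 spots and Mgp in 83, beside 39 with Dcn, 32 with Col1a2 and 20 with Slc6a13. The most frequent of the 5 genes was Igf2 in 46 spots and Mgp in 36, without ties. Most spots rested on few molecules: 32 held exactly 3 UMIs of the 5 genes, the median was 4 and the highest was 32. Of the 104 spots, 52 held 2 of the genes, 10 held 1, 29 held 3, 9 held 4 and 4 held all 5. The selected spots contained 33.9, 17.4, 14.3 and 31.1% of the UMIs of these genes in the kept spots of trained 1, trained 2, untrained 1 and untrained 2, so most of their molecules lay elsewhere.

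The threshold passed through a continuous range of scores. The lowest selected spot scored 10.4, 7.74, 9.98 and 11.4 in trained 1, trained 2, untrained 1 and untrained 2, and the highest spot outside with 3 or more UMIs scored 10.1, 7.22, 9.30 and 10.8. The highest scores were 61.7, 43.6, 55.7 and 98.8. The minimum of 3 UMIs removed 43, 61, 53 and 49 spots from the 82, 88, 63 and 77 spots of the top 3%. Untrained 1, the shallowest section, kept 10, while trained 2, the deepest, lost the most spots. The part of depth in these counts was not tested. Selected spots made 1.42 and 0.916% of kept spots in trained mice, against 0.473 and 1.09% in untrained mice, ranges that overlapped. The rule itself sets these shares, so no test of them is given.

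Markers outside the rule bore out the label in part. Of 8 further markers of meningeal fibroblasts (Col1a1, Col3a1, Lum, Slc6a20a, Slc13a4, Slc22a6, Aldh1a2 and Foxc1), all 8 were detected and all 8 were higher in the selected spots by edgeR. Together they reached 463 and 364 CPM in the selected spots of trained 1 and trained 2 and 704 and 965 CPM in untrained 1 and untrained 2, beside 29.1, 27.6, 40.4 and 35.2 CPM elsewhere. Both untrained sections were above both trained ones in the selected spots and elsewhere alike.

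Against the label, 34 of the 104 spots were also among the 270 choroid plexus spots, the top 3% of each section by Ttr, Kl, Folr1, Clic6, Kcnj13 and Calml4 with 3 or more UMIs of them. Those 34 were 22, 3, 3 and 6 spots, or 56.4, 11.1, 30.0 and 21.4% of the selected spots and 26.8, 5.36, 5.45 and 7.79% of the choroid plexus spots of trained 1, trained 2, untrained 1 and untrained 2. The 6 choroid plexus markers summed to 157744, 1950, 56037 and 117515 CPM in the selected spots, beside 2839, 516, 2187 and 3395 CPM elsewhere, with Ttr, which carries thyroxine and retinol, as the most abundant. Trained 1 and untrained 2 were high and trained 2 was low. Without the 34 spots, the same markers summed to 2041, 259, 1109 and 2261 CPM with Calml4 at 0, and the 8 fibroblast markers to 383, 321, 1109 and 1353 CPM. They are therefore called selected spots, after a rule led by Igf2 and Mgp, and results are given with all 104 and with the 70 that were not choroid plexus spots (17, 24, 7 and 22).

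**Figure D1:**
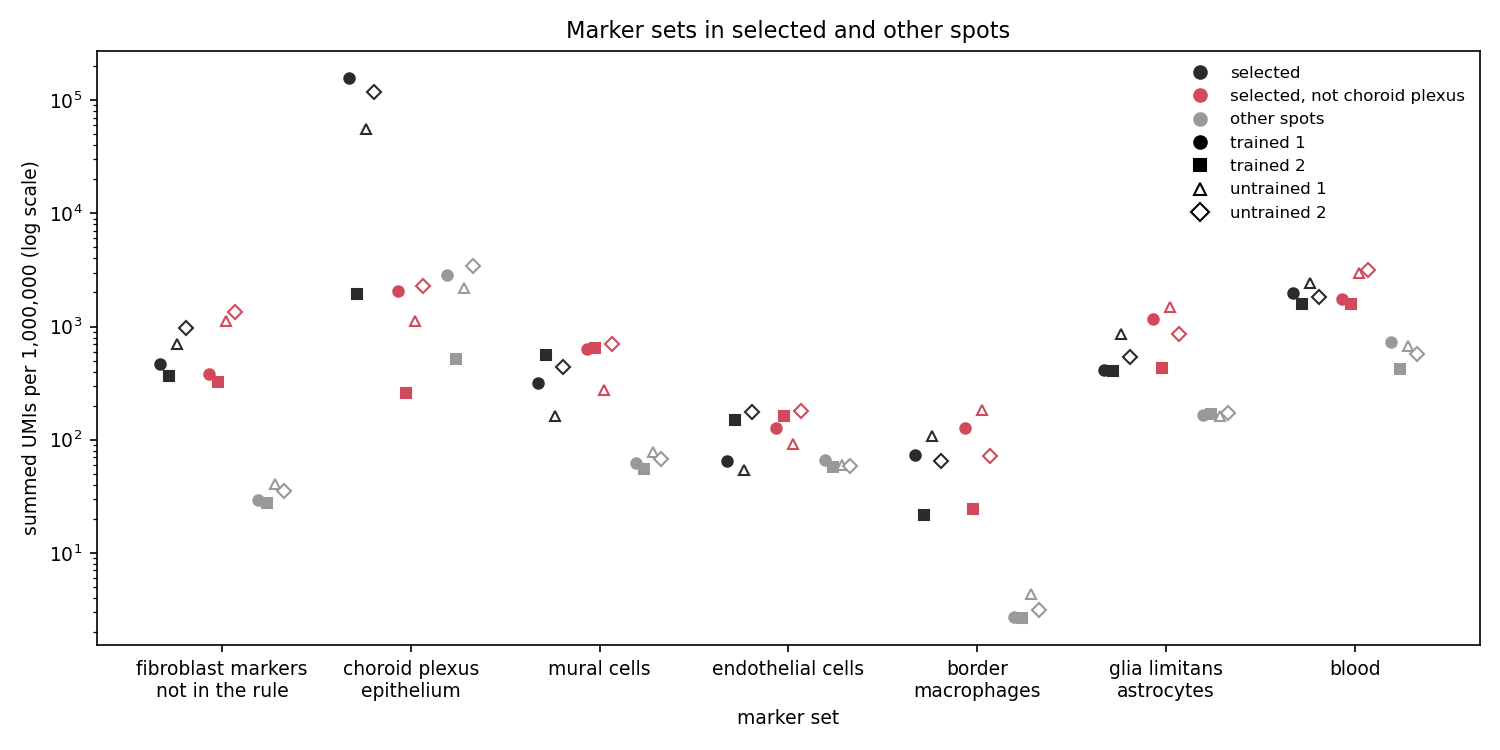
Summed UMIs per 1000000 of each marker set in the selected spots, the selected spots that were not choroid plexus spots, and all other spots, with 1 symbol per section and open symbols for the untrained condition. The vertical axis is logarithmic.

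Markers of other cell types were present in the same spots. The 4 mural markers Acta2, Myh11, Tagln and Rgs5 summed to 317, 557, 162 and 441 CPM in the selected spots and to 62.2, 55.5, 77.9 and 67.9 CPM elsewhere, led by Acta2 in the selected spots. The 3 blood markers summed to 1966, 1586, 2436 and 1838 CPM, beside 734, 418, 672 and 570 CPM, led by Hbb-bs, a beta-globin. Astrocyte markers of the glia limitans (4 genes, led by Gfap) summed to 414, 407, 866 and 542 CPM, beside 166, 170, 161 and 171 CPM. All 3 sums were higher over the selected spots than elsewhere in all 4 sections. In the 34 selected spots that were also choroid plexus spots, mural markers stood at 167, 0, 0 and 171 CPM and glia limitans markers at 59.6, 245, 0 and 209 CPM, so the sums do not show which single spots held them. Such spots numbered 3 each in trained 2 and untrained 1, with 12264 and 7645 UMIs, so the values of these 2 sections, 0 included, bear little.

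Border macrophage markers were few but higher than elsewhere. Mrc1, Cd163, Pf4 and Lyve1 summed to 73.1, 21.4, 108 and 64.3 CPM, or 20 UMIs in all, beside 2.72, 2.64, 4.29 and 3.10 CPM elsewhere, with Mrc1 the most abundant and Lyve1 at 0. The 3 endothelial markers, led by Cldn5, summed to 65.0, 150, 54.1 and 175 CPM beside 66.0, 57.3, 59.3 and 58.1 CPM elsewhere, and 0 of the 3 passed the test. The 3 ependymal markers, led by Foxj1, summed to 195, 32.1, 54.1 and 101 CPM, and all 3 were at 0 once choroid plexus spots were left out. The part of these cell types in the following results was not tested.

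The selected spots were frequent at the edge of the tissue in 3 sections and mostly inside it in trained 1. At most 2 array steps from a position without tissue lay 25.6 and 81.5% of the selected spots in trained 1 and trained 2 and 50.0 and 64.3% in untrained 1 and untrained 2, beside 14.7, 19.7, 15.1 and 16.2% of all other spots. The share was higher than among other spots in all 4 sections, and the conditions overlapped (exact permutation p = 1 over the 6 arrangements of 2 against 2 mice, a design too small for any such p to pass 0.05). With the edge at 3 steps, the shares of trained 1 were nearly even, at 25.6% of selected and 22.0% of other spots. Of the 104 spots, 55 were edge spots and 49 interior spots at 2 steps, 29 of the latter in trained 1.

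Neighbourhood differed between sections as well. Of the array neighbours of a selected spot, 30.8, 6.96, 10.3 and 12.8% were themselves selected in trained 1, trained 2, untrained 1 and untrained 2, beside 0.906, 0.646, 0.314 and 0.753% for the neighbours of other spots. Trained 1 held a single connected group of 14 spots, while the largest groups elsewhere were 2, 2 and 4 spots. Isolated selected spots numbered 18, 19, 6 and 17. Slc6a13, which was found in few spots, was present in 16 of the 55 edge spots and 4 of the 49 interior ones.

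**Figure D2:**
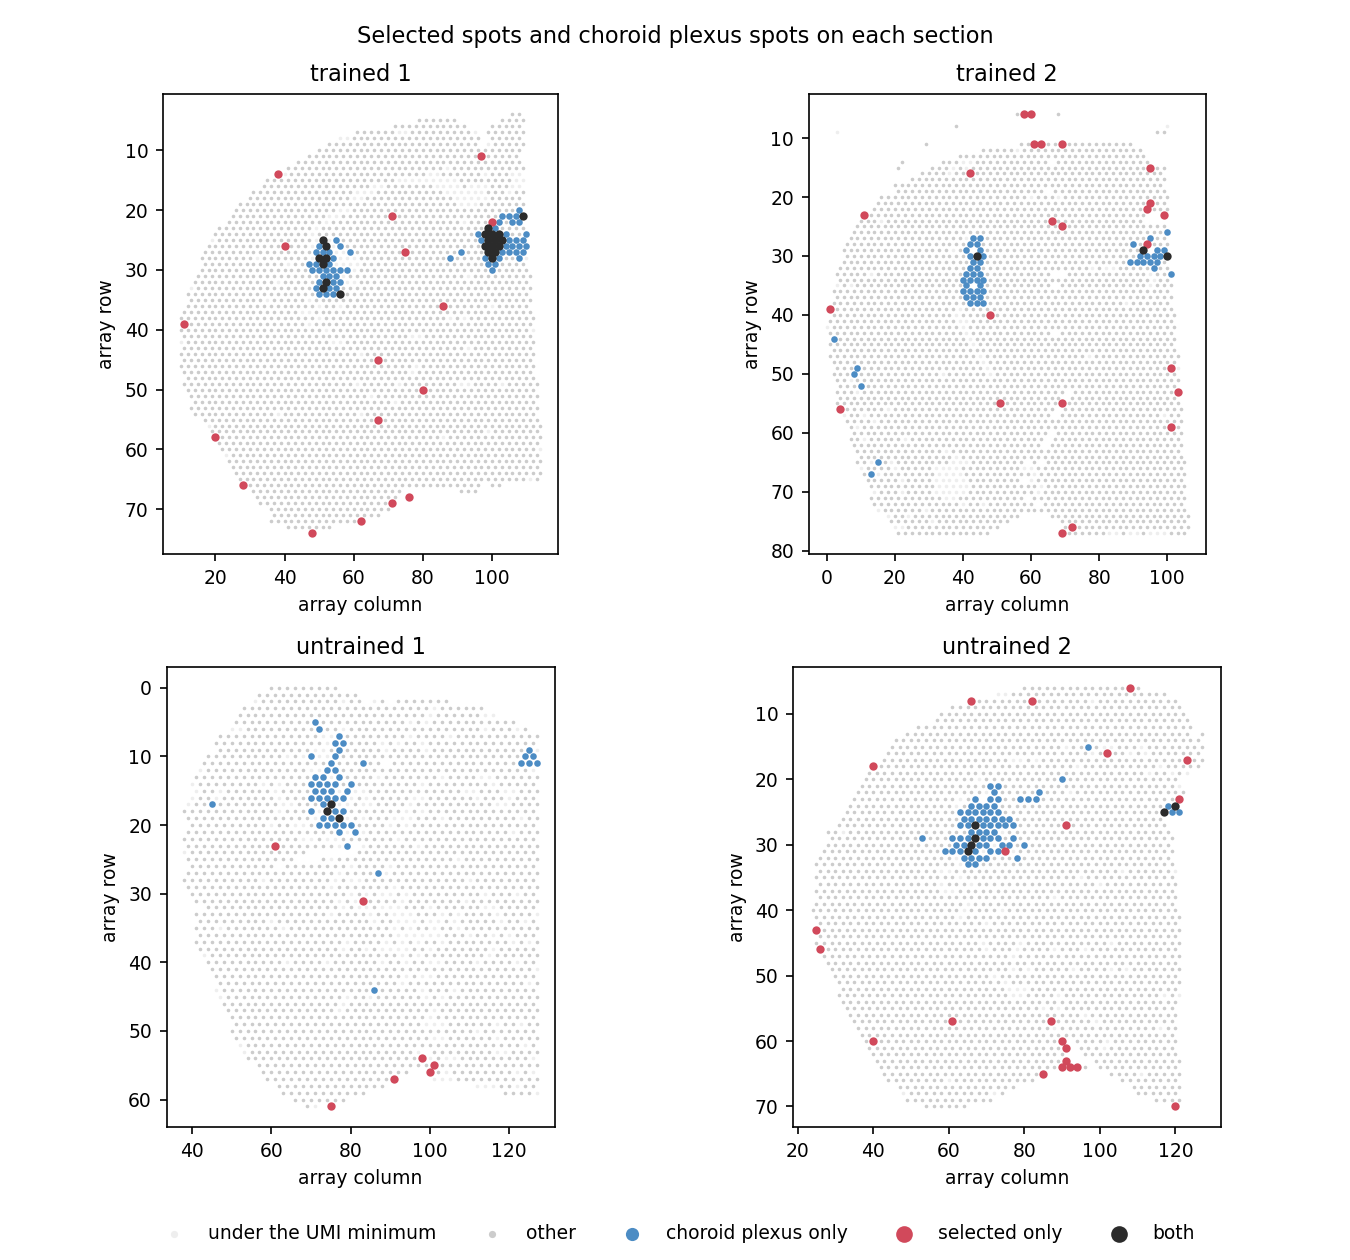
Positions of the selected spots, the choroid plexus spots and the spots that met both rules on each section, over all other spots in grey. Each point is 1 array position, and very pale points are spots under 300 UMIs.

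The depth of the selected spots depended on how many were taken. Their median UMIs were 2591, 3170, 1663 and 2408 in trained 1, trained 2, untrained 1 and untrained 2, beside 2017, 2590, 1179 and 1905 in all other spots, a ratio of 1.28, 1.22, 1.41 and 1.26. The mitochondrial share was 8.80, 9.96, 9.12 and 9.75%, beside 12.3, 6.81, 12.1 and 11.6%. The selected spots were deeper than the others in every section, and their mitochondrial share was lower in every section but trained 2. At the top 1.5%, the depth ratio was 1.0, 0.856, 1.01 and 1.06, lower in trained 2 and near even in the other sections. Total UMIs stand in the denominator of the score, so depth is a description.

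Against all other spots of the same section, the matrix gene Fmod and the transporter gene Slc6a20a were higher in the selected spots. Fmod, a small proteoglycan that organizes collagen fibrils, stood at 81.2 and 42.9 CPM in trained 1 and trained 2 and at 271 and 184 CPM in untrained 1 and untrained 2, beside 4.44, 3.03, 6.58 and 4.18 CPM elsewhere (log2 fold change 4.65 ± 0.48 SE, adjusted p = 7.6e-20, edgeR, higher in 4 of 4 sections). Slc6a20a, a proline transporter, stood at 81.2, 85.7, 217 and 340 CPM beside 10.6, 12.2, 11.7 and 9.60 CPM (3.82 ± 0.37, adjusted p = 3.6e-22, 4 of 4). For both genes the selected spots were above the others in each section, and the untrained sections were above the trained ones. Orders of the conditions, above, here and for the genes that follow, are descriptions. With 2 against 2 mice, 2 of the 6 arrangements separate any 4 distinct values, so a lack of overlap is not a result about a gene. Between conditions, 0 of 1924 genes passed with all selected spots.

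Ptgds, the prostaglandin D synthase of the meninges, was the most abundant of the genes described for this comparison outside the choroid plexus. It stood at 9172, 13372, 23227 and 21407 CPM in the selected spots and at 821, 738, 1171 and 862 CPM elsewhere (3.99 ± 0.29, adjusted p = 5.4e-39, 4 of 4). Again the untrained sections were high and the trained ones low, with no overlap.

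In all, 611 of 12554 genes tested were higher and 600 lower in the selected spots (percent called 4.87 and 4.78, or 9.65 in either direction, edgeR with section as a block), the 5 genes of the rule left out. With DESeq2 the split was 554 higher and 91 lower. The median log2 fold change over all genes tested was −0.20 in edgeR and −0.03 in DESeq2, so levels of genes near that median depend on the scaling. With the choroid plexus spots left out of both classes, 199 of 11929 genes were higher and 101 lower (percent called 1.67 and 0.847, either 2.51), and 189 of the 199 were among the 611 (95.0% of the shorter and 30.9% of the longer list). The count was 455 without trained 1 (303 higher, 152 lower) and 365 without untrained 2 (270 higher, 95 lower), against 1211 with all sections.

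Of 30 listed proteoglycans and glycoproteins of the matrix, 22 were higher, 4 did not pass and 4 were not tested (16, 7 and 7 without choroid plexus spots). A gene that is low elsewhere can pass the filter on low counts through the selected spots alone, so no median is given for a list that holds untested genes. For several of these lists the summed level is given instead. The 30 matrix genes, led by Sparc, summed to 1990, 1961, 2815 and 2831 CPM in the selected spots (1914, 2060, 3972 and 3081 CPM without choroid plexus spots), beside 862, 1052, 966 and 816 CPM elsewhere. The selected spots held more in every section, although Sparc itself did not pass (−0.02 ± 0.21, adjusted p = 0.98, edgeR). Bgn, a proteoglycan near to decorin, stood at 81.2, 75.0, 162 and 101 CPM beside 6.45, 5.68, 10.0 and 9.60 CPM elsewhere (3.56 ± 0.47, adjusted p = 4.6e-12). Ogn, osteoglycin, stood at 40.6, 21.4, 108 and 138 CPM beside 3.30, 3.91, 4.58 and 3.25 CPM (4.13 ± 0.56, adjusted p = 2.1e-11). Both were higher in 4 of 4 sections.

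Of 17 listed collagen genes, 7 were higher, 0 lower and 3 not tested (3, 0 and 6 without choroid plexus spots). They summed to 772, 289, 541 and 671 CPM (281, 296, 370 and 392 CPM without choroid plexus spots), beside 91.3, 95.4, 86.5 and 82.3 CPM elsewhere, led by Col9a3 with all selected spots and by Col1a1 without choroid plexus spots. Col1a1, the partner chain of Col1a2 in type I collagen, stood at 40.6, 85.7, 54.1 and 46.0 CPM, beside 2.58, 1.66, 3.15 and 2.32 CPM (4.55 ± 0.61, adjusted p = 9.5e-12, 4 of 4 sections, 4.96 without choroid plexus spots). Col3a1, the chain of type III collagen, rested on 7 UMIs in the selected spots (4.55 ± 0.92, adjusted p = 3.4e-05, 4 of 4). Of 15 basement membrane genes, 5 were higher and 2 not tested (2 and 3 without choroid plexus spots), with sums of 390, 332, 379 and 386 CPM beside 122, 118, 116 and 109 CPM elsewhere. Lamc3, a laminin chain, stood at 16.2, 21.4, 108 and 18.4 CPM beside 1.29, 1.08, 1.15 and 3.25 CPM (3.74 ± 0.83, adjusted p = 0.00027).

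Of 10 listed transporters of the leptomeninges, 7 were higher and 2 not tested. Without choroid plexus spots 6 were higher and 4 not tested, of which Slc22a2, Slc47a1 and Slc16a9 had 0 UMIs in the selected spots. The 10 summed to 577, 354, 975 and 1103 CPM (714, 308, 1478 and 1549 CPM without choroid plexus spots), beside 63.1, 63.7, 68.1 and 59.0 CPM elsewhere, and the selected spots held more in every section. Slc13a4, a sulfate transporter, stood at 236, 53.6, 217 and 294 CPM beside 4.44, 3.43, 7.44 and 7.13 CPM (5.09 ± 0.39, adjusted p = 5.5e-36, 4 of 4 sections). Trained 2 was low and the other 3 sections were similar. Of the 70 UMIs of Slc13a4 in the selected spots, 44 lay in the 34 that were also choroid plexus spots. Slc13a4 was also the most abundant of the 10 in the spots that were choroid plexus spots only, with 25 UMIs. The organic anion transporters Slc22a6 (3.94 ± 0.63, adjusted p = 4.8e-08) and Slc22a8 (3.38 ± 0.46, adjusted p = 4.8e-11), which clear drugs and metabolites, were higher in 4 of 4 sections each.

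Among genes that handle retinoids and prostaglandins, 9 of 13 were higher with a median of 3.04 (8 of 13 without choroid plexus spots, median 2.54, or 3.07 without Crabp1, which had 0 UMIs in the selected spots and allows no fold). Aldh1a2, which makes retinoic acid, stood at 8.12, 32.1, 108 and 82.7 CPM beside 2.01, 1.17, 5.73 and 3.25 CPM (4.05 ± 0.66, adjusted p = 7.3e-08, 4 of 4 sections). Its trained sections were low and its untrained sections high, without overlap, in the selected spots and elsewhere. Of 9 genes of the insulin-like growth factor system outside the rule, 4 were higher (median 0.47), or 2 of 9 (median 0.55) without choroid plexus spots, among them Igfbp2, which binds these factors, at 877, 225, 704 and 1020 CPM beside 43.2, 32.1, 46.1 and 44.5 CPM (3.94 ± 0.22, adjusted p = 2.2e-67, 4 of 4).

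Of 17 secreted signals and their receptors in the files, 8 were higher and 2 not tested (8 and 4 without choroid plexus spots). They summed to 1267, 1939, 2112 and 2261 CPM, led by Apod, beside 498, 662, 571 and 548 CPM elsewhere. Bmp7, a bone morphogenetic protein, stood at 24.4, 42.9, 217 and 129 CPM beside 8.17, 7.73, 9.16 and 10.8 CPM (2.97 ± 0.49, adjusted p = 1.7e-07, 4 of 4 sections). Cxcl12, a chemokine of meningeal and vascular cells, stood at 122, 107, 162 and 156 CPM beside 31.3, 29.9, 38.1 and 29.6 CPM (2.03 ± 0.32, adjusted p = 1.2e-08, 4 of 4). By description only, Bmp7 separated the conditions widely and Cxcl12 little. Wnt6, a Wnt ligand, rested on 8 UMIs (4.55 ± 0.87, adjusted p = 8.9e-06, 4 of 4).

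Of 14 listed fibroblast transcription factors, 5 were higher and 5 not tested, with the same counts without choroid plexus spots. They summed to 268, 171, 271 and 423 CPM, led by Zic1, beside 100, 104, 80.2 and 85.7 CPM elsewhere. Zic1 itself did not pass (0.68 ± 0.30, adjusted p = 0.15, edgeR). Foxc1, a forkhead factor needed for the meninges to form, stood at 24.4, 21.4, 0 and 73.5 CPM beside 4.16, 4.01, 4.87 and 5.11 CPM (2.96 ± 0.66, adjusted p = 0.00028, 3 of 4 sections). Without untrained 2 it did not pass (2.28, adjusted p = 0.23). Foxc2 (4.87 ± 1.0, adjusted p = 5.1e-05) and Tbx18 (4.09 ± 0.90, adjusted p = 0.0002), a factor of mural and meningeal cells, rested on 6 and 7 UMIs, with none in untrained 1 (3 of 4 sections each). Of 11 genes of the arachnoid barrier and junctions, 4 were higher and 2 not tested (2 and 3 without choroid plexus spots), among them Gjb2, a gap junction protein of meningeal cells, at 16.2, 96.4, 0 and 101 CPM beside 5.02, 4.80, 2.00 and 6.04 CPM (3.58 ± 0.56, adjusted p = 1.4e-08, 3 of 4).

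About as many vessel-wall genes passed as did not. Of 13 mural genes, 6 were higher and 1 not tested (5 and 2 without choroid plexus spots), with sums of 739, 1136, 812 and 984 CPM, led by Vtn, beside 171, 187, 178 and 167 CPM elsewhere. Acta2, the actin of smooth muscle, stood at 73.1, 257, 108 and 184 CPM beside 8.17, 12.4, 14.3 and 11.9 CPM (3.75 ± 0.37, adjusted p = 8.8e-22, 4 of 4 sections), and Tagln and Myh11, also of its contractile apparatus, reached 3.62 ± 0.48 and 3.48 ± 0.59 (adjusted p = 9.2e-12 and 3.4e-07, 3 of 4). Of 15 endothelial genes, 7 were higher (median 1.15), and 5 without choroid plexus spots with 1 not tested, while Cldn5, the claudin of the blood-brain barrier, read 1.04 ± 0.41 and did not pass (adjusted p = 0.092). Of 5 blood genes, 4 were higher (median 1.60), and 4 without choroid plexus spots with 1 not tested, such as Hbb-bs (1.60 ± 0.20, adjusted p = 1.3e-13, 4 of 4).

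Of 13 genes of border macrophages and antigen presentation, 9 were higher and 3 not tested (7 and 5 without choroid plexus spots). They summed to 406, 193, 650 and 689 CPM (306, 210, 1016 and 855 CPM without choroid plexus spots), led by Cd74, beside 21.6, 17.1, 34.6 and 24.9 CPM elsewhere, so the selected spots held more in every section. Of microglial genes, 2 of 10 were higher (median 0.63), or 1 of 10 (median 0.82) without choroid plexus spots. Cd74, the invariant chain of class II molecules, stood at 106, 53.6, 108 and 211 CPM beside 3.44, 4.21, 9.45 and 5.27 CPM (4.53 ± 0.45, adjusted p = 7.1e-21, 4 of 4 sections). H2-Aa, a class II chain, stood at 56.9, 53.6, 54.1 and 120 CPM beside 2.44, 1.17, 3.44 and 1.08 CPM (5.31 ± 0.56, adjusted p = 1.5e-18, 4 of 4). Untrained 2 was highest in both genes.

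Astrocyte genes split. Of 16 tested, 6 were higher with a median of 0.41 (5 and 0.55 without choroid plexus spots), among them genes of the surface layer. Gfap, the intermediate filament of reactive and border astrocytes, stood at 179, 171, 487 and 267 CPM beside 34.8, 38.1, 36.9 and 50.7 CPM (2.44 ± 0.26, adjusted p = 6.8e-18), and Myoc, secreted by glia limitans astrocytes, at 40.6, 53.6, 54.1 and 147 CPM beside 3.44, 4.89, 6.01 and 12.7 CPM (3.44 ± 0.51, adjusted p = 2.4e-09). Both were higher in 4 of 4 sections, and Gfap was high in untrained 1. Of 10 oligodendrocyte genes 1 was higher (median −0.14), and of 10 outer cortex genes 0 with 1 not tested. Without choroid plexus spots these counts were 0 (median 0.09) and 1, again with 1 not tested.

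Choroid plexus and ependymal genes were higher when all spots were used. With all spots, 16 of 16 choroid plexus genes were higher (median 4.55) and 10 of 11 ependymal genes (median 2.87). Without choroid plexus spots, 1 of the 16 was higher and 10 were not tested, and 0 of the 11 with 6 not tested. Ttr and Kl helped to choose the choroid plexus spots, so their levels without these spots are fixed by that choice. Ttr went from 4.31 ± 0.42 (adjusted p = 1.6e-21) to 0.03 (adjusted p = 0.98), Kl, the aging-related coreceptor klotho, from 4.99 ± 0.26 (adjusted p = 1.8e-76) to 0.55 (adjusted p = 0.89), and Enpp2, autotaxin, from 3.58 ± 0.28 (adjusted p = 1.8e-35) to 0.29 (adjusted p = 0.69). Ecrg4, a secreted peptide precursor of the plexus, went from 5.27 ± 0.25 (adjusted p = 5.2e-92, 4 of 4 sections) to 2.29 (adjusted p = 0.11). Slc4a5, a bicarbonate transporter of the plexus (5.54 ± 0.54, adjusted p = 3.6e-22, 4 of 4), and Prr32 (5.40 ± 0.66, adjusted p = 4.2e-14, 4 of 4) were the highest among genes higher in every section and were not tested without those spots.

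Neuronal genes were lower. Of 12 tested, 9 were lower and 0 higher with a median of −1.05 (3 of 12 and −0.64 without choroid plexus spots). Snap25, a synaptic vesicle fusion protein, stood at 1210, 1596, 1245 and 1048 CPM in the selected spots and at 2928, 2760, 2850 and 2810 CPM elsewhere (−1.28 ± 0.23, adjusted p = 2e-06, lower in 4 of 4 sections). Stmn2, a microtubule regulator of growing neurites, read −1.22 ± 0.24 (adjusted p = 1.6e-05, 4 of 4) and Nrgn, a calmodulin-binding protein of dendrites, −1.09 ± 0.22 (adjusted p = 4.5e-05, 4 of 4). Nrgn did not pass without trained 1 (−0.95, adjusted p = 0.066).

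Of 10 immediate early genes, Egr1 was lower and the other 9 did not pass (median −0.71). Egr1, an activity-induced transcription factor, stood at 56.9, 96.4, 0 and 64.3 CPM beside 197, 247, 104 and 257 CPM (−1.76 ± 0.32, adjusted p = 2.1e-06, lower in the 3 sections with UMIs; untrained 1 was too shallow to bear on the sign). Arc, the gene whose promoter drives Cre in these mice, read 65.0, 161, 0 and 46.0 CPM beside 142, 134, 50.4 and 138 CPM (−0.72 ± 0.32, adjusted p = 0.15), and passed without trained 2 (−1.29, adjusted p = 0.023). Trained 2 was the only section in which Arc was higher in the selected spots.

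The largest fitted declines were of genes with 0 UMIs in the selected spots, for which only a bound can be given, with a floor of 3 UMIs over all selected spots. Lrrtm4, a synaptic adhesion protein, had 594 UMIs elsewhere and was at least 2.51-fold lower (adjusted p = 0.0095), and Zfp385b, with 653, at least 2.76-fold (adjusted p = 0.0094). Jakmip3, 4931428F04Rik and Hectd2 were at least 2.15, 1.87 and 1.78-fold lower. All of these were at 0 in the selected spots of every section. Of the 600 lower genes, 419 had UMIs in the selected spots of every section, and a section at 0 UMIs bears little on the sign where few were sampled. Of the 611 higher genes, 276 were higher in every section.

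The comparison was repeated among edge spots, which held fewer UMIs and let fewer genes be tested. There, 108 of 6420 genes were higher and 10 lower in the selected spots (percent called 1.68 and 0.156, either 1.84), and all 108 were among the 611. At the edge, 6 of the 10 transporters were higher and 4 not tested, 11 of the 30 matrix genes were higher and 15 not tested, and 0 of 12 neuronal genes passed (median −0.76, beside −0.22 for all genes). Snap25 read −1.22 (adjusted p = 0.14) and Stmn2 −1.19 (adjusted p = 0.16), while Fmod read 4.20 (adjusted p = 8.2e-16) and Slc6a20a 3.70 (adjusted p = 1.5e-17). With choroid plexus spots also left out, 89 genes were higher and 6 lower (percent called 1.4 and 0.0946, either 1.5).

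Selected spots were next set against choroid plexus spots, each without the 34 spots in both. Fmod, Ogn and Ptgds were higher in the selected spots, and so were the vessel-wall genes Acta2 and Tagln, while oligodendrocyte genes were lower. Of 1600 genes tested, 45 were higher and 46 lower (percent called 2.81 and 2.88, either 5.69, edgeR), and 25 and 14 with DESeq2. Ptgds stood at 2603, 2663, 2284 and 2095 CPM in the choroid plexus spots, under its level in the selected spots of every section (3.17 ± 0.31, adjusted p = 3.6e-09, 4 of 4). The fibroblast genes Fmod (4.37 ± 0.79, adjusted p = 0.00026), Ogn (3.86 ± 1.16, adjusted p = 0.039) and Slc6a20a (2.92 ± 0.61, adjusted p = 0.0018) were higher, as was Slc13a3, a dicarboxylate transporter (3.52 ± 0.78, adjusted p = 0.0033).

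By list, 4 of 10 leptomeningeal transporters were higher with 5 not tested, 5 of 30 matrix genes with 22 not tested and 4 of 13 mural genes with 9 not tested. In the choroid plexus spots the 10 transporters summed to 161, 164, 211 and 131 CPM, the 30 matrix genes to 847, 925, 1107 and 1146 CPM and the 13 mural genes to 210, 184, 211 and 168 CPM. In the selected spots that were not choroid plexus spots the mural genes summed to 1378, 1271, 1109 and 1603 CPM, and all 3 sums were above those of the choroid plexus spots in every section. Acta2 reached 3.36 ± 0.49 (adjusted p = 1.2e-05), Tagln 3.64 ± 0.82 (adjusted p = 0.004) and Nupr1, a stress-induced chromatin protein, 3.95 ± 0.79 (adjusted p = 0.0011). Avp, the vasopressin precursor of hypothalamic neurons, was also higher (3.84 ± 0.47, adjusted p = 3.9e-07). Its level was uneven between sections. Over all selected spots, those shared with the choroid plexus included, most Avp UMIs lay in trained 2 and very few in untrained 2. Lower were Enpp2 (−3.57 ± 0.23, adjusted p = 1.2e-13), Ecrg4 (−3.14 ± 0.42, adjusted p = 2e-06), the anion exchanger Slc4a2 (−3.93 ± 1.0, adjusted p = 0.012, and −3.80, adjusted p = 0.052 without trained 1), the collagen chain Col9a3 (−3.37 ± 0.79, adjusted p = 0.0059) and 2900040C04Rik (−4.66 ± 0.80, adjusted p = 0.00013).

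Of 10 oligodendrocyte genes, 8 were lower and 1 was not tested, among them Mbp, the myelin basic protein (−1.35 ± 0.21, adjusted p = 2.7e-05). The 10 listed oligodendrocyte genes summed to 5179, 7907, 11825 and 3971 CPM in the selected spots and to 8349, 21606, 12474 and 14538 CPM in the choroid plexus spots. Every section was lower in the selected spots, with untrained 1 the nearest. The count of 91 fell to 42 (19 higher, 23 lower) without trained 1, 35 (19 and 16) without trained 2 and 42 (20 and 22) without untrained 2.

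Within the selected spots, 11 genes passed between the edge and the interior. With the edge at 1 step, where untrained 1 had too few edge spots to be used, 0 passed and Avp turned in sign. Fmod stood at 394, 56.9, 913 and 358 CPM at the edge of trained 1, trained 2, untrained 1 and untrained 2, and at 28.5, 0, 0 and 0 CPM inside (4.40 ± 0.88, adjusted p = 0.017, higher in 4 of 4 sections). Slc6a20a stood at 225, 99.6, 730 and 609 CPM at the edge and 57.0, 43.4, 0 and 56.6 CPM inside (2.66 ± 0.62, adjusted p = 0.043, 4 of 4). Ecrg4 stood at 0, 28.5, 183 and 197 CPM at the edge and 1320, 43.4, 847 and 1416 CPM inside (−3.13 ± 0.45, adjusted p = 0.002, lower in 4 of 4). Fmod and Slc6a20a were high at the edge and Ecrg4 inside, except in trained 2, where Ecrg4 was low in both. The interior spots of trained 2 and untrained 1 held only 23070 and 12991 UMIs. Their signs therefore bear little on the 4 of 4 where a gene had few or no UMIs, as for Ecrg4 in trained 2. By list, 1 of 30 matrix genes was higher at the edge with 25 not tested, 1 of 10 transporters with 7 not tested and 0 of 17 collagens with 16 not tested.

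Of 757 genes tested, 4 were higher and 7 lower at the edge (percent called 0.528 and 0.925, either 1.45, edgeR), and 5 and 2 with DESeq2. The other 2 higher genes were Nnat, neuronatin, a calcium-handling proteolipid (563, 541, 2008 and 914 CPM at the edge, 209, 130, 308 and 37.8 CPM inside, 2.34 ± 0.42, adjusted p = 0.01) and Avp (113, 2420, 1643 and 17.9 CPM at the edge, 75.9, 130, 154 and 0 CPM inside, 2.81 ± 0.51, adjusted p = 0.01). Lower were Kl (−2.81 ± 0.53, adjusted p = 0.013), Enpp2 (−2.88 ± 0.66, adjusted p = 0.043), Spint2, a protease inhibitor of epithelia (−2.58 ± 0.60, adjusted p = 0.043), Trf, transferrin (−1.40 ± 0.31, adjusted p = 0.043), Slc22a17 (−1.21 ± 0.29, adjusted p = 0.0498) and 2900040C04Rik (−2.83 ± 0.69, adjusted p = 0.0498). Kl, Enpp2 and 2900040C04Rik were lower in 3 of 4 sections.

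Of the interior spots, 21 of 29 in trained 1, 0 of 5 in trained 2, 3 of 5 in untrained 1 and 4 of 10 in untrained 2 were choroid plexus spots, beside 6 of 55 edge spots in all. The 6 choroid plexus markers summed to 3323, 2519, 1095 and 23090 CPM at the edge and to 183773, 217, 79209 and 217024 CPM inside. The 8 fibroblast markers summed to 620, 427, 2190 and 1594 CPM at the edge and 437, 173, 77 and 302 CPM inside. Inside, choroid plexus markers were high except in trained 2, and fibroblast markers were lower inside in every section. With choroid plexus spots left out, untrained 1 also left the fit, because a class needed at least 5 spots. There, 0 of 368 genes passed in edgeR (18 at an unadjusted p under 0.05), and DESeq2 was not run on them. Of the 10 transporters 0 were tested, and of the 30 matrix genes 1, which read −0.08. Slc6a20a and Fmod were thus not tested there, and the count does not rest on the choroid plexus spots alone. With all selected spots, the 11 calls became 1 without untrained 1 (Ecrg4, −3.22, adjusted p = 0.014), 5 without untrained 2 and 45 without trained 2.

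**Figure D3:**
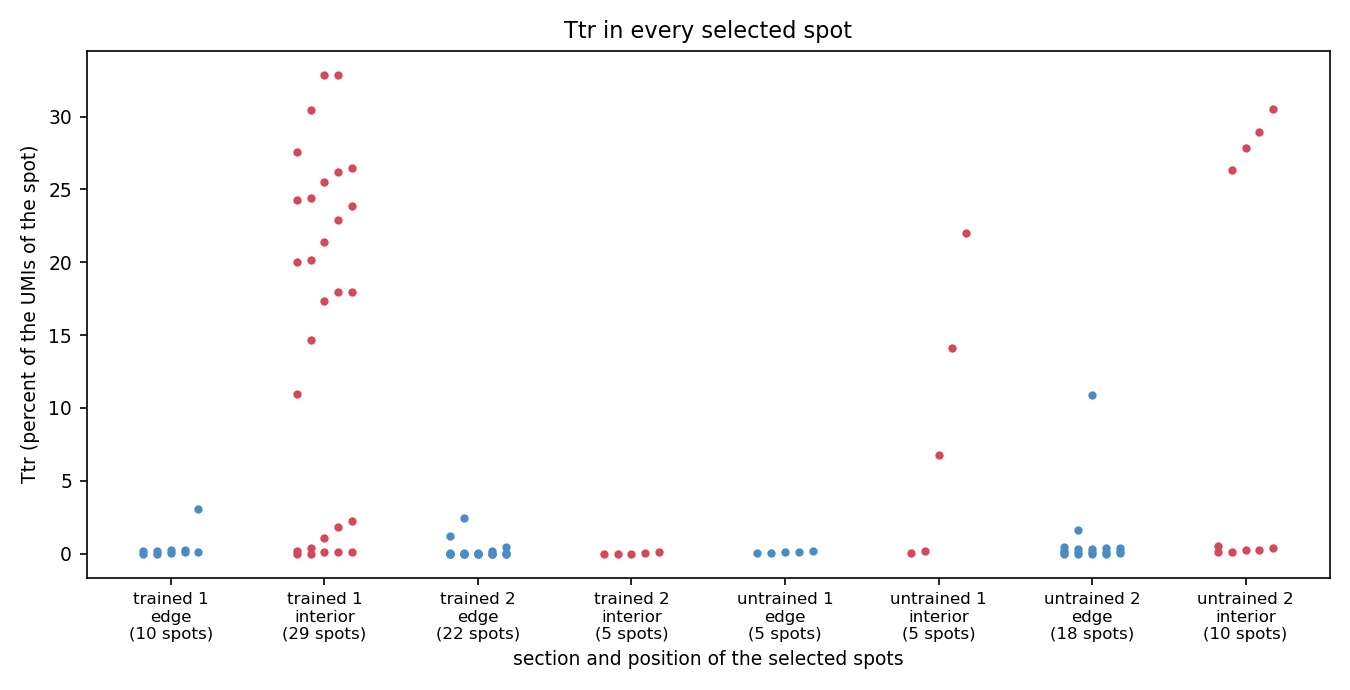
Ttr as a percentage of the UMIs of each selected spot, at the edge and in the interior of each section. Trained 1 gave 29 of the 49 interior spots.

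Between conditions, no gene passed in the selected spots. The fibroblast genes with the smallest p values were Slc6a20a at 81.2 and 85.7 CPM in trained mice against 217 and 340 CPM in untrained mice (log2 fold change of trained over untrained −1.89 ± 0.47, adjusted p = 1, edgeR), and, of immune genes, H2-Eb1, a class II chain, at 24.4 and 10.7 against 217 and 129 CPM (−2.97 ± 0.85, adjusted p = 1). The conditions did not overlap for either gene. Clk3, a splicing kinase, read 8.12 and 10.7 against 217 and 120 CPM (−3.80 ± 0.98), Btbd3 130 and 171 against 54.1 and 27.6 CPM (2.10 ± 0.63) and Serpini1, neuroserpin, 138 and 236 against 0 and 46.0 CPM (2.15 ± 0.67), each with an adjusted p of 1.

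Of 1924 genes tested, 0 were higher and 0 lower in the trained condition (percent called 0, edgeR), 54 had an unadjusted p under 0.05, and DESeq2 gave 0 calls and 8 such genes. Listed genes gave 0 calls in every list, although 4 of 10 leptomeningeal transporters, 12 of 30 matrix genes and 12 of 16 choroid plexus genes were all that could be tested. The median log2 fold change over all genes tested was 0.02. The rule genes, which are only described, read −0.93 for Col1a2, −0.61 for Igf2, −0.58 for Mgp and −0.39 for Dcn, and Slc6a13 did not pass the filter on low counts. Without untrained 1, which left 1 untrained mouse, Avp read 6.26, and Oxt, the oxytocin precursor, was also higher in the trained condition. Without trained 2, which left 1 trained mouse, Avp read −0.36. In both fits the other condition alone gave the spread, so no p value is given.

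Leaving out choroid plexus spots gave 5 lower genes of 750 tested in the trained condition (percent called 0.667). Slc6a20a stood at 102 and 49.3 CPM in trained mice against 370 and 481 CPM in untrained mice (−2.84 ± 0.60, adjusted p = 0.014, edgeR, both trained under both untrained mice). Igfbp2 stood at 230 and 197 against 554 and 659 CPM (−1.71 ± 0.40, adjusted p = 0.022), and Nnat at 408 and 358 against 1201 and 837 CPM (−1.41 ± 0.33, adjusted p = 0.022). The conditions did not overlap for these 3 genes.

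B2m, the light chain of class I molecules, stood at 230 and 308 against 462 and 801 CPM (−1.48 ± 0.36, adjusted p = 0.025), again without overlap. DESeq2 passed 0 of the 750 genes, with 13 at an unadjusted p under 0.05. The 7 spots of untrained 1 held 4 UMIs of Slc6a20a, and edgeR gave 0 calls without trained 1, without trained 2 or without untrained 2 (64, 42 and 65 genes at an unadjusted p under 0.05). Without untrained 1, Slc6a20a read −2.99, Igfbp2 −1.83, B2m −1.70 and Nnat −1.33. Leaving out any 1 section left 1 mouse in a condition, so the other condition alone gave the spread in all of these fits.

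The marker sets in those 70 spots are described without a test. With 2 against 2 mice, 2 of the 6 arrangements separate any 4 distinct values, so a sum that does not overlap between conditions is not a result about its set. The 8 fibroblast markers summed to 383 and 321 CPM in trained against 1109 and 1353 CPM in untrained mice, and the 3 blood markers, led by Hbb-bs, to 1760 and 1567 against 2956 and 3134 CPM. Neither overlapped. The astrocyte markers, led by Gfap, did, at 1174 and 432 against 1478 and 855 CPM. So did the mural (638 and 641 against 277 and 694 CPM), endothelial (128 and 160 against 92.4 and 178 CPM), border macrophage (128 and 24.7 against 185 and 71.2 CPM) and choroid plexus sums (2041 and 259 against 1109 and 2261 CPM), while ependymal markers were at 0. The part of these levels in the 5 calls was not tested. Among edge spots, Slc6a20a was the 1 gene of 560 that passed (−2.47, adjusted p = 0.0084, percent called 0.179).

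The same contrast in all other spots gave 0 higher and 2 lower genes of 13737 (percent called 0.0146, edgeR). They were 2900052N01Rik at 35.8 and 34.3 against 110 and 103 CPM (−1.68 ± 0.12, adjusted p = 0.00048) and Phyhip at 60.9 and 57.0 against 133 and 111 CPM (−1.13 ± 0.13, adjusted p = 0.032). Without untrained 1, which left 1 untrained mouse, Phyhip read −0.99. The counts were 5 higher and 14 lower with DESeq2, and 824, 37, 2 and 7 without trained 1, trained 2, untrained 1 and untrained 2. Slc6a20a there read 10.6 and 12.2 against 11.7 and 9.60 CPM (0.05 ± 0.23). A test of whether the training contrast in the selected spots differed from that in other spots passed 0 of 12554 genes (percent called 0, edgeR), with 266 at an unadjusted p under 0.05 and 0 calls and 87 such genes by DESeq2. It also passed 0 of 11929 genes without choroid plexus spots (232 at an unadjusted p under 0.05), the setting of the 5 calls, and 0 of 6420 among edge spots (145 such genes). The smallest p values with all selected spots were of Clk3 (−4.05 ± 0.98, adjusted p = 0.5), Serpini1 (2.34 ± 0.71, adjusted p = 1), Mpp3 and Mdp1, both at 0 UMIs in the selected spots of the untrained mice, and Pgm1 (−2.68 ± 0.86, adjusted p = 1).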

How the data were processed

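The deposited matrices hold UMI counts that the authors made per Visium spot and gene; processing notes name Cell Ranger 8 and STAR, and the file headers spaceranger 1.2.2. All 32285 features were used, and 32158 of their IDs were matched in GENCODE vM21; 78 features shared a symbol. Members and gene lists were chosen with earlier results of these data known. UMIs were summed per section and class and tested with edgeR 4.0.16 (filterByExpr, TMM, quasi-likelihood F test, section as a block where classes share a section, Benjamini-Hochberg threshold 0.05) in R 4.3.3, with limma 3.58.1, and with DESeq2 1.42.0 as the alternative. Python 3.11.15, numpy 2.4.6, pandas 2.3.3, scipy 1.17.1 and matplotlib 3.10.9 did the rest. CPM were UMIs per 1000000 UMIs of a class. The 5 rule genes, and the 6 choroid plexus genes against choroid plexus spots, were left out of calls. Edge spots lay at most 2 steps from a position without tissue.

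Residual degrees of freedom were 3 for selected against other spots, edge against interior and selected against choroid plexus spots, and 2 for the conditions and their interaction. Prior degrees of freedom were infinite for selected against other spots and the interaction, 7.60 for the conditions in selected spots, 8.89 in other spots, 13.8 for edge against interior and 29.8 against choroid plexus spots. In a class of 10 spots with 18470 UMIs, as in untrained 1, a single UMI is a large step, so its values are coarse. The fits were tested on simulated data.

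Genes were named by rule: the 5 rule genes, from each of 22 lists up to 4 genes with the highest mean CPM in the selected spots and those called, and per comparison the 10 largest changes among calls that had 1 sign throughout the sections (for conditions, no overlap), or, with no call, the 5 smallest p values. Of 283 listed genes, 282 matched a symbol. Named outside this rule, after their values were seen, were Nnat, B2m, Igfbp2, Avp and Oxt between conditions, Cldn5 against other spots, 2900040C04Rik at the edge and Ecrg4 against choroid plexus spots. Alternatives were another tool, no filter, top 1.5% and 5%, 500 UMIs, other edges, no block, thinning, pairing and sections left out. Chosen after seeing the data were edge spots without choroid plexus spots, all spots with 3 or more UMIs of the 5 genes, edge spots alone between conditions, the crossed pairing, and DESeq2 and left-out sections without choroid plexus spots. Some named genes are not reported here. No doublet caller was used, since a spot holds several cells.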

Additional observations from a re-analysis of the deposited data

Results flagged for a closer look

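Spots under 300 UMIs were not used in any comparison, yet held UMIs of the 5 rule genes above the floor of 3 UMIs in 2 sections: 4 UMIs in 125 such spots of trained 1 and 7 UMIs in 246 such spots of untrained 1. Trained 2 and untrained 2 held 1 UMI each.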

How the results depend on the processing

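Counts of genes that differed moved with several choices; the cause was not tested. For selected against other spots (1211), the count was 645 with DESeq2, 300 without choroid plexus spots, 118 among edge spots, 95 with both limits, 729 at the top 1.5%, 976 at the top 5%, 751 with all spots of 3 or more UMIs of the 5 genes, and 333 without choroid plexus spots and untrained 1. Leaving out 1 section gave 365 to 1094. Between conditions in selected spots (0), it was 5 without choroid plexus spots, 1 among edge spots and 1 without a filter on low counts; leaving out 1 section gave 0 to 2, and 0 to 10 without choroid plexus spots. The number in the sample labels as a replicate block gave 0 calls in the selected spots and 42 in other spots, and the crossed pairing 0 in the selected spots. Between conditions, in selected and in other spots, leaving out 1 section left 1 mouse in a condition. The other condition alone then gave the spread.

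In other spots (2), DESeq2 gave 19 calls, no filter 216, and leaving out 1 section 2 to 824. Edge against interior (11) gave 7 with DESeq2, 0 without choroid plexus spots, 0 with the edge at 1 step, 23 at 3 steps, 5 without a filter, and 1 to 45 on leaving out 1 section. A class needed at least 5 spots, so untrained 1 also left the fits without choroid plexus spots and with the edge at 1 or 3 steps. Those 3 counts therefore rest on more than the choice named. Against choroid plexus spots (91), DESeq2 gave 39 and leaving out 1 section 35 to 98.

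Signs turned 7 times among the named genes. Ttr against other spots read −0.26 among edge spots without choroid plexus spots, and Kl −0.17 without these spots and untrained 1. Between conditions in selected spots, Igfbp2 read −2.21 to 0.046 on leaving out 1 section (0.0003 without untrained 2), and Avp −0.36 to 6.26, with −0.67 when trained 2 and choroid plexus spots were left out. At the edge, Avp read −1.74 with the edge at 1 step, a fit that untrained 1 had also left. The remaining alternatives kept the sign: of 642 for 45 genes against other spots, 568 gave the same call, 70 lost it and 2 gained it; of 83 at the edge, 42 kept and 40 lost it; of 150 between conditions, 135 kept it and 11 gained it; and of 105 against choroid plexus spots, 103 kept and 2 lost it.

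The edge share moved to 83.3% in untrained 1 at the top 1.5%, and with all spots of 3 or more UMIs to 48.1% in trained 2 (58.5% at the top 5%), 38.5% in untrained 1 and 48.0% in untrained 2. The depth ratio was 1.0, 0.856, 1.01 and 1.06 at the top 1.5%, 1.65 in trained 2 and 1.70 in untrained 2 at the top 5%, and 1.43, 1.89, 1.95 and 2.10 with all spots of 3 or more UMIs.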

Other observations

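When Igf2 or Mgp was left out of the rule, spots chosen by the other 4 genes still held more of it than spots elsewhere in every section. Igf2 stood at 724, 144, 417 and 878 CPM in such spots of trained 1, trained 2, untrained 1 and untrained 2, beside 30.4, 13.7, 25.7 and 34.6 CPM elsewhere. Mgp stood at 311, 260, 530 and 626 CPM beside 28.8, 43.3, 35.4 and 47.7 CPM. Dcn stood at 146, 85.6, 59.5 and 164 CPM beside 5.59, 7.24, 10.0 and 9.91 CPM. Sections under 3 UMIs in the chosen spots bear little on the other 3 genes: untrained 1 with 1 UMI of Dcn, 2 of Col1a2 and 1 of Slc6a13, and trained 2 with 2 of Slc6a13 (20.4 beside 5.39 CPM). No test was made.

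With 2 mice a condition and 1 section a mouse, mouse, section and array cannot be told apart. The plane of a section fixes how much surface and choroid plexus it holds, and untrained 1 gave 10 spots. Spots mix cells, so levels belong to spots.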
